A study of Mus musculus with 10 samples.

Results

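Values of 10 RNA-processing genes were followed across 10 mouse ESC lines: the CLK kinase genes Clk1, Clk2, Clk3 and Clk4, the DEAD-box helicase genes Ddx5 and Ddx17, and Leng8, Luc7l3, Acin1 and Pnisr. They were picked out of the 20206 genes of the table by Ensembl identifier, 1 row for each symbol, as genes known for introns that stay in part of their polyadenylated RNA. Leng8 and Ddx17 were added with their lower values in LPD lines already known. They were thus chosen by their diet difference, and that difference is given below as a description. Ddx17 and Acin1 are also among the genes whose transcripts the study picked from these same libraries, which is no independent evidence. The study lists a transcript of each as lower in LPD lines, a measure unlike the gene totals used here. For Ddx17 it reports no significant change by qRT-PCR. All 10 passed the filter on low values, a mean over the lines of 10 or more.

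The lines came from blastocysts of wild-type C57BL/6 mothers aged 7 to 9 weeks, mated with C57BL/6 males and fed either LPD (9% casein) or the isocaloric NPD control (18% casein) until E3.5. LPD lines 1, 4, 6, 20 and 40 and NPD lines 8, 15, 21, 36 and 51 are labelled male and were, per the study's methods, each from a different mother, so n = 5 lines per diet. The lines were grown in fibroblast-free medium before RNA was taken, and each line is 1 sample. Values are normalized estimated counts per gene, in which a detained intron cannot be seen by itself. The methods state enrichment on oligo(dT) beads whereas the labels give total RNA, so how far RNA without a poly(A) tail enters the values is not settled here.

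CLK kinases phosphorylate SR proteins, the serine- and arginine-rich factors that mark exons for the spliceosome, and so help to release them from nuclear speckles. DEAD-box helicases unwind short RNA duplexes, and DDX5 and its close relative DDX17 act in splicing, transcription and microRNA processing. A detained intron remains in an otherwise spliced and polyadenylated RNA that is held in the nucleus, and in the Clk genes such RNA is known as a store that can be spliced when kinase activity drops. In ESCs, as in other cells, many genes of RNA processing carry such introns.

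The annotation shows introns kept in transcripts classed as retained intron, and does not tell whether such RNA is held in the nucleus. On GRCm38 with GENCODE M21 annotation, a later release than the transcripts the authors used, 8 of the 10 members had at least 1 transcript classed as retained intron, against 56.5% of 13723 tested protein-coding genes. The members were picked as genes known for such introns, so this share describes the choice. Clk1 and Clk4 had 7 such transcripts each and Acin1 had 9, and 3.90% of those protein-coding genes had 6 or more. Clk2, Clk3, Leng8, Luc7l3 and Ddx5 had 4, 4, 3, 2 and 1, whereas Ddx17 and Pnisr had none. Transcripts marked for nonsense-mediated decay, a route that degrades RNA with an early stop, numbered 3 for Clk4, 2 each for Clk1, Ddx5 and Luc7l3, and 1 each for Clk2, Clk3 and Pnisr.

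All 4 Clk genes shared 1 arrangement. In each, 1 short exon was flanked on both sides by introns that a retained-intron transcript held whole. For Clk1, Clk3 and Clk4 the same transcript held both. The first transcripts found for the Clk2 introns differed, and whether any 1 transcript held both was not checked. The exon was 91 bases long in Clk1 and Clk4, 85 in Clk2 and 97 in Clk3, none a multiple of 3. It was skipped in 3 of 13, 1 of 11, 1 of 9 and 3 of 14 transcripts of Clk1, Clk2, Clk3 and Clk4. Skipped means that an exon before it was joined to an exon after it. Transcripts that start after the exon or end before it were not counted as skipping it. The sequences below, which show how alike these exons are, run 5′ to 3′ from 20 bases of the intron before to 6 bases of the intron after, with the AG and GT that end and start the introns in capitals.
Clk1 exon 5 (chr1:58420115-58420231, minus strand): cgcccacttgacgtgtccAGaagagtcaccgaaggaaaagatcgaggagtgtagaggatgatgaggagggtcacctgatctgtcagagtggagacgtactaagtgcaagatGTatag
Clk2 exon 4 (chr3:89169598-89169708, plus strand): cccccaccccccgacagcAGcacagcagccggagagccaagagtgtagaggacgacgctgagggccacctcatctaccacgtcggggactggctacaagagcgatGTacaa
Clk3 exon 5 (chr9:57758621-57758743, minus strand): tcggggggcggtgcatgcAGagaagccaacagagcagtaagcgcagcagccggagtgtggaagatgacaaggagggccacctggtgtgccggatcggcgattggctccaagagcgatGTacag
Clk4 exon 4 (chr11:51273058-51273174, plus strand): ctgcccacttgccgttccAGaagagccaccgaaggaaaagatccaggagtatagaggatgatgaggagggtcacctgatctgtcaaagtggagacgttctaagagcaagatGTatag
Clk4 exon 8, of 95 bases, also had both flanking introns held whole, and it was skipped in 0 of 14 transcripts. The first transcripts found for its flanking introns differed too, and whether any 1 transcript held both was not checked. The Clk1 exon 5 and Clk4 exon 4 were identical at 85 of 91 bases (93.4%). Reads from such stretches could be split between Clk1 and Clk4, which makes the separate values of these genes less certain. The donor after the exon was gatGTatag in Clk1 and Clk4, gatGTacaa in Clk2 and gatGTacag in Clk3, with 3 exon bases before 6 intron bases.

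Leng8 (chr7:4137039-4148177, plus strand) had 3 introns held whole by a retained-intron transcript, introns 7, 11 and 12 of 14, of 195, 373 and 81 bases. Their ends are shown because Leng8 had the clearest difference between the diets, with GT and AG of the intron in capitals, 3 exon bases outside them and 6 or 20 intron bases inside.
Leng8 intron 7 donor: cagGTgact
Leng8 intron 7 acceptor: gtctatcccccaccccacAGtgg
Leng8 intron 11 donor: gctGTaagt
Leng8 intron 11 acceptor: tttgattctcttccctgaAGgtt
Leng8 intron 12 donor: acaGTaagg
Leng8 intron 12 acceptor: tgctcttttctactgcccAGgtg
Elsewhere, Ddx5 had 1 such intron (intron 11, 82 bases) and Acin1 had 1 (intron 17, 182 bases), whereas Ddx17, Luc7l3 and Pnisr had 0. Only introns of the longest protein-coding transcript of each gene were examined, and only those lying whole inside an exon of a retained-intron transcript. These are therefore not counts of all retained introns of a gene.

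The LPD lines were sequenced less evenly than the NPD lines. Depth, estimated from what 1 read was worth, was 21813608, 5854723, 12314458, 24244265 and 11238703 read equivalents in LPD lines 1, 4, 6, 20 and 40 and between 20313616 and 23176877 in NPD lines. Across 14354 genes tested with limma, 0 passed an adjusted p of 0.1 (0% called), while 721 had an unadjusted p under 0.05 (5.02%). Without LPD line 40, 40 genes passed. The 9 ESC markers, among them Pou5f1 and Nanog, summed to between 94274 and 116148 in LPD lines and between 89901 and 115991 in NPD lines, with none at 0 in any line. The 8 fibroblast markers summed to between 307 and 3251 in LPD lines and 394 and 5484 in NPD lines, highest in NPD line 15 and LPD line 6. Of the 8, Lum was listed at 0 in 7 lines, Dcn in 4 and Postn in 3. Sums for 7 primitive endoderm markers ranged over 645 to 4312 in LPD lines and 448 to 4941 in NPD lines, and sums for 6 trophectoderm markers over 2170 to 3649 and 2248 to 4380. Sums of all 4 lists thus overlapped between the diets. By log2 fold change, 7 of 7 primitive endoderm markers were higher in LPD lines (median 0.34). Among 6 tested fibroblast markers, 5 were lower (median -0.99) and 1 higher. The ESC list had 3 higher and 6 lower, and the trophectoderm list 3 and 2. In these 4 lists 0 markers had an unadjusted p under 0.05. The part of such cells in the differences was not tested.

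Of the 10 members, 2 had an unadjusted p under 0.05, Leng8 and Ddx17, both lower in LPD lines, and 313 genes or 2.18% of all genes tested were at that p in that direction. Leng8 was the 1 member whose diets did not overlap, as was so for 146 genes or 1.02% of all. No member passed an adjusted p of 0.1 with limma, the lowest being 0.290 for Leng8. Differences were below 0 for 6 members and above 0 for 4, with a median log2 fold change of -0.05, against 0.00 over all genes tested, of which 49.5% were below 0. Because the members were selected on results of these libraries, these counts describe them and support nothing further. The plot of the members by line shows these values.

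**Figure D1:**
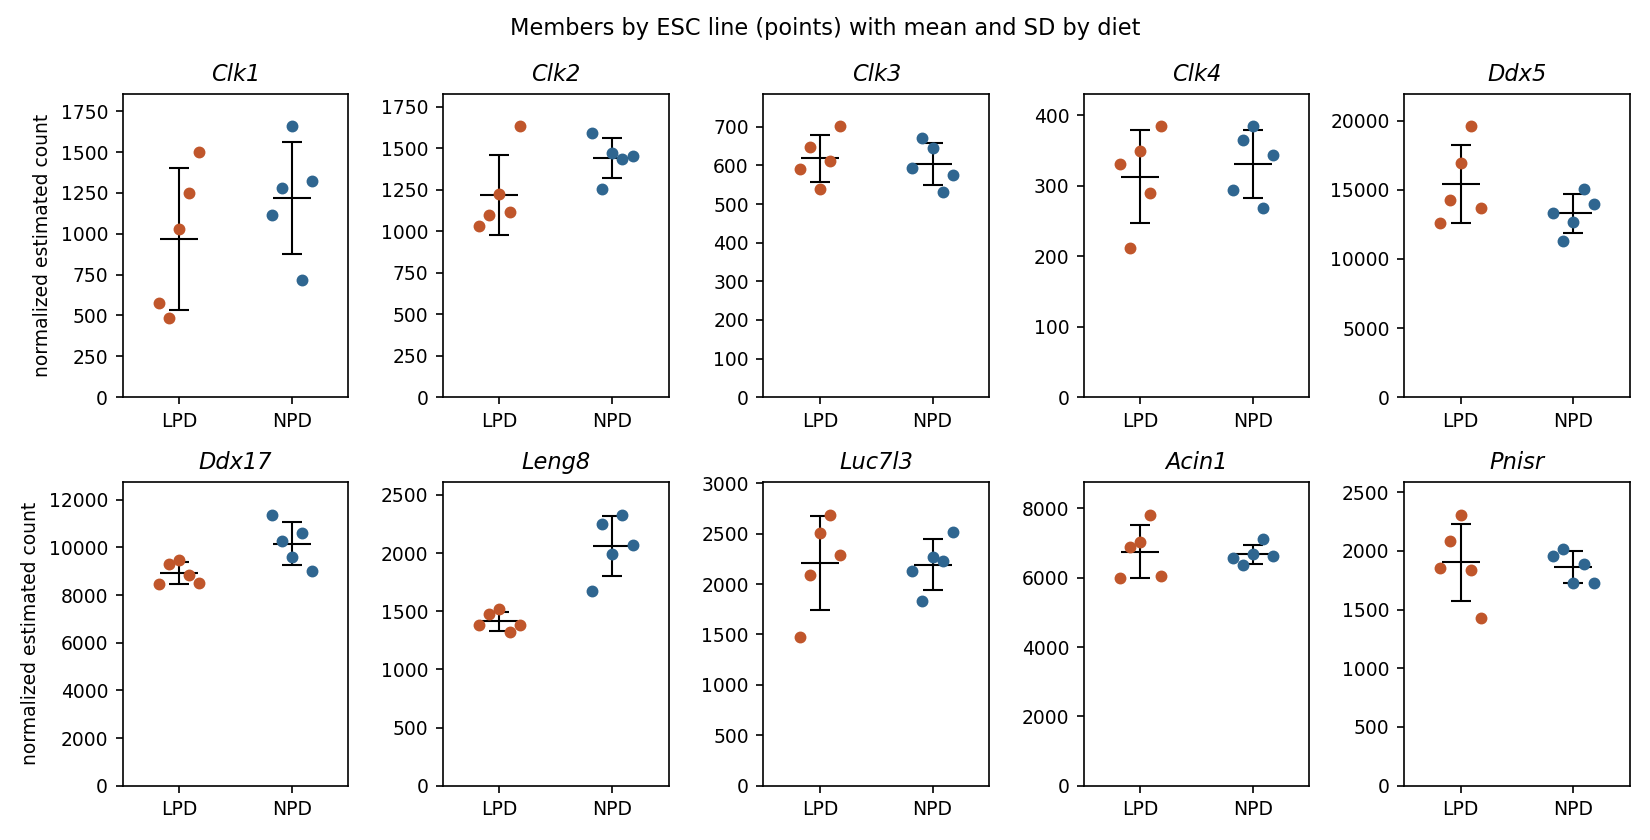
Normalized estimated count (y axis, from 0) of each of the 10 genes in each ESC line (points) for LPD and NPD lines, with the mean and SD of 5 lines in black. Leng8 ranges from 1318 to 1519 in LPD lines and from 1674 to 2332 in NPD lines, and the diets overlap for the other 9 genes.

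Leng8 encodes a protein related to TREX-2 subunits, which link transcription to export of mRNA. Its value was 1381, 1480, 1519, 1318 and 1381 in LPD lines 1, 4, 6, 20 and 40 and 1674, 2253, 1988, 2332 and 2072 in NPD lines 8, 15, 21, 36 and 51. Each LPD line was below each NPD line, and the LPD lines lay closer together. LPD lines had a mean of 1416 ± 81.7 (SD, n = 5) and NPD lines one of 2064 ± 257 (SD, n = 5). The log2 fold change was -0.54 (SE 0.10), rank 5 by p among the 14354 genes. Fewer RNA molecules per cell and fewer cells with the gene on cannot be told apart in such bulk samples. The lowest NPD line was line 8, and the difference was -0.61 without it. It was -0.58 with depth as a covariate, and -0.54 with the diets still apart after the median deviation of chromosome 7 genes in each line was subtracted. Leng9 on the other strand shares 263 exon bases (4.1%) with Leng8, and its mean was 17.1 in LPD lines and 20.8 in NPD lines. The gene total does not tell whether spliced RNA, RNA with an intron or both differed.

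Among the CLK kinases, Clk1 varied most between lines. Clk1 (chr1:58410189-58424066, minus strand) was at 577, 485, 1030, 1248 and 1501 in LPD lines 1, 4, 6, 20 and 40 and at 1113, 1279, 1660, 715 and 1324 in NPD lines 8, 15, 21, 36 and 51. LPD lines 1 and 4 and NPD line 36 were low, and the remaining lines of both diets overlapped. The highest line had 3.42 times the value of the lowest, and the SD within diets was larger than for 95.9% of 10455 genes whose mean reached 100. Means were 968 ± 434 (SD, n = 5) and 1218 ± 344 (SD, n = 5), a log2 fold change of -0.41 (SE 0.31) for LPD against NPD. Leaving out LPD line 4, the least deeply sequenced, gave -0.19, leaving out LPD line 40 gave -0.60, and depth as a covariate gave -0.20. The part of depth in this difference was not tested further.

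Clk4 (chr11:51261730-51281766, plus strand), the closest relative of Clk1, was at 331, 211, 349, 290 and 384 in LPD lines 1, 4, 6, 20 and 40 and at 294, 365, 385, 269 and 343 in NPD lines 8, 15, 21, 36 and 51. LPD line 4 was again the lowest and NPD line 21 again the highest, but LPD line 1, low for Clk1, was not low for Clk4. Means were 313 ± 66.4 (SD, n = 5) and 331 ± 48.6 (SD, n = 5), a log2 fold change of -0.10 (SE 0.17). The sign turned without LPD line 4, to 0.04, so no direction can be given.

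Clk2 (chr3:89164795-89176921, plus strand) was at 1032, 1097, 1224, 1114 and 1633 in LPD lines 1, 4, 6, 20 and 40. In NPD lines 8, 15, 21, 36 and 51 it was at 1590, 1252, 1470, 1437 and 1452. LPD lines 1, 4, 6 and 20 were below each NPD line, whereas LPD line 40 was the highest of all 10 lines. Means were 1220 ± 241 (SD, n = 5) and 1440 ± 121 (SD, n = 5), a log2 fold change of -0.25 (SE 0.12), and -0.36 without LPD line 40. NPD line 8 had a median log2 deviation of 0.18 over 471 genes of chromosome 3, where Clk2 lies, and that of the other lines was between -0.04 and 0.04. With these medians subtracted the Clk2 difference was -0.23.

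Clk3 (chr9:57750624-57765860, minus strand) was the steadiest of the kinases. It was at 592, 648, 540, 612 and 702 in LPD lines 1, 4, 6, 20 and 40 and at 594, 671, 646, 532 and 574 in NPD lines 8, 15, 21, 36 and 51. Both diets covered the same range, with means of 619 ± 60.9 (SD, n = 5) and 604 ± 55.5 (SD, n = 5) and a log2 fold change of 0.04 (SE 0.10), whose sign changed under 3 of 21 alternatives. Edc3, on the other strand, shares 1284 exon bases (15.2%) with Clk3 and had a mean of 887, and since the sources used here do not state whether strand was counted, reads of this stretch cannot be told apart.

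Neither helicase passed adjustment (limma adjusted p = 0.994 for Ddx5 and 0.982 for Ddx17). Ddx5 (chr11:106780355-106789185, minus strand) was at 12629, 14280, 16959, 19606 and 13709 in LPD lines 1, 4, 6, 20 and 40 and at 13332, 11317, 12691, 15085 and 13987 in NPD lines 8, 15, 21, 36 and 51. LPD lines 6 and 20 were above each NPD line, whereas the other LPD lines fell within the NPD range. The log2 fold change was 0.20 (SE 0.12, limma unadjusted p = 0.123), from means of 15436 ± 2824 (SD, n = 5) and 13282 ± 1411 (SD, n = 5), and 0.11 without LPD line 20.

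Ddx17 (chr15:79527736-79546741, minus strand) was at 8446, 9295, 9489, 8866 and 8503 in LPD lines 1, 4, 6, 20 and 40. In NPD lines 8, 15, 21, 36 and 51 it was at 11383, 10263, 9598, 10592 and 8994. NPD line 51 alone among the NPD lines fell within the LPD range. Its SD within diets was larger than for 6.4% of those 10455 genes. The log2 fold change was -0.19 (SE 0.08), -0.23 without NPD line 51 and -0.14 without NPD line 8, the line with the highest value.

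Set against each other within a line, which removes the scaling of the library, the log2 ratio of Ddx5 to Ddx17 was 0.58, 0.62, 0.84, 1.14 and 0.69 in LPD lines 1, 4, 6, 20 and 40. In NPD lines 8, 15, 21, 36 and 51 it was 0.23, 0.14, 0.40, 0.51 and 0.64. NPD line 51 was above LPD lines 1 and 4, and otherwise the LPD lines were higher. The mean was 0.77 ± 0.23 (SD, n = 5) and 0.38 ± 0.20 (SD, n = 5), a difference of 0.39. As Ddx17 was chosen by its diet difference, no test was made of this ratio. Ratios of Clk1 to the other kinases overlapped widely, with LPD means below NPD means by 0.15 for Clk2, 0.31 for Clk4 and 0.44 for Clk3 on the log2 scale.

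**Figure D2:**
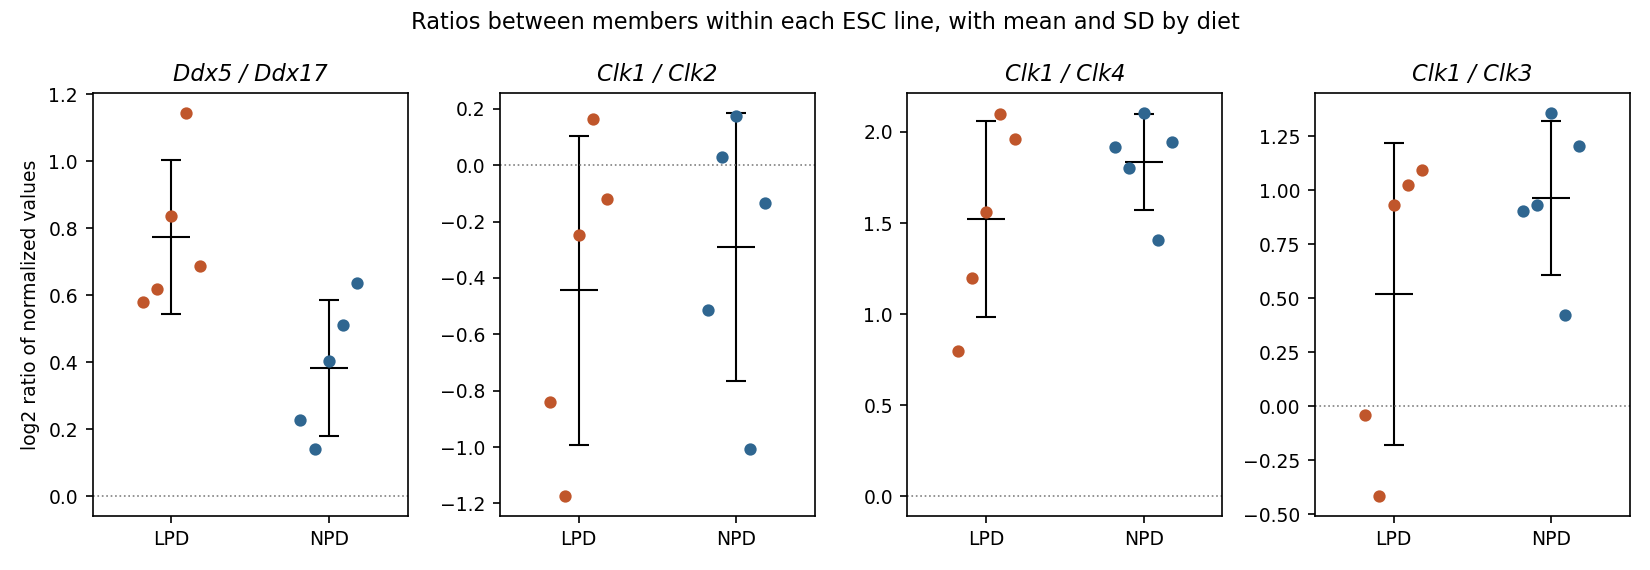
Log2 ratio of 2 genes within each ESC line (y axis, points) for LPD and NPD lines, with mean and SD of 5 lines in black. For Ddx5 over Ddx17 the LPD lines lie between 0.58 and 1.14 and the NPD lines between 0.14 and 0.64, whereas the 3 ratios of Clk1 overlap widely.

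Luc7l3, Acin1 and Pnisr had nearly equal means in both diets. Luc7l3 (chr11:94287890-94321988, minus strand) encodes a relative of the yeast U1 snRNP protein Luc7. It was at 1471, 2090, 2503, 2690 and 2291 in LPD lines 1, 4, 6, 20 and 40 and at 2126, 1831, 2264, 2228 and 2520 in NPD lines 8, 15, 21, 36 and 51. LPD lines held both the lowest value, in line 1, and the highest, in line 20, and the log2 fold change was -0.01 (SE 0.15), or 0.13 without LPD line 1.

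Acin1 (chr14:54642161-54686931, minus strand) encodes acinus, a subunit of the ASAP complex bound to spliced RNA. It was at 6001, 6873, 7031, 7825 and 6042 in LPD lines 1, 4, 6, 20 and 40 and at 6582, 6359, 6677, 7123 and 6619 in NPD lines 8, 15, 21, 36 and 51. The NPD values lay within the LPD range, and the log2 fold change was 0.01 (SE 0.09). Pnisr (chr4:21847583-21876475, plus strand), which encodes a nuclear protein rich in serine and arginine, was at 1851, 2088, 2310, 1839 and 1430 in LPD lines 1, 4, 6, 20 and 40 and at 1960, 2018, 1726, 1889 and 1725 in NPD lines 8, 15, 21, 36 and 51. LPD line 40 was the lowest and LPD line 6 the highest, with a log2 fold change of 0.02 (SE 0.12). For Luc7l3, Acin1 and Pnisr the sign of the difference changed under 4, 7 and 7 of 21 alternatives, so none has a direction in these gene totals. They do not speak to the Acin1 transcript that the study lists as lower in LPD lines.

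Levels between genes were compared as normalized value per kilobase, over the median length of the protein-coding transcripts. Over this length Ddx5 was highest at 16678 ± 2778 (SD, n = 10 lines), well apart from Acin1 at 2831 ± 228. Leng8 at 2416 ± 536 differed from Acin1 and from Ddx17 at 2355 ± 234 by less than its own SD. Acin1 and Ddx17 differed from each other by more than the SD of either. Luc7l3 at 653 ± 105, Clk2 at 630 ± 101 and Clk1 at 609 ± 218 were not apart. Pnisr at 427 ± 53.8 lay within the spread of Clk1, Clk3 was at 388 ± 35.2, and Clk4 was lowest at 211 ± 36.5. Ddx5 was rank 1, Clk3 rank 9 and Clk4 rank 10 also with the length of the longest protein-coding transcript or of all exons joined. The lead of Ddx5 was much smaller there, at 4035 against 2017 for Ddx17 with the longest transcript and 2486 against 1249 with all exons. Its median length was 861 bases and its longest 3559, so its level depends strongly on the length used. Leng8 moved from rank 3 to 8 and 5 with these lengths, and Ddx17 from 4 to 2 and 2, so the order in between depends on the length used. Over the median length, Leng8 also had another rank in each diet, 4 at 1966 ± 114 (SD, n = 5) in LPD lines and 2 at 2866 ± 357 (SD, n = 5) in NPD lines. Such shifts were not particular to Leng8. Luc7l3 was rank 5 in LPD lines and 7 in NPD lines, and Clk1, Clk2, Ddx17 and Acin1 each differed by 1 rank.

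The log2 differences of the members and of related gene lists are set side by side in the plot of diet differences.

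**Figure D3:**
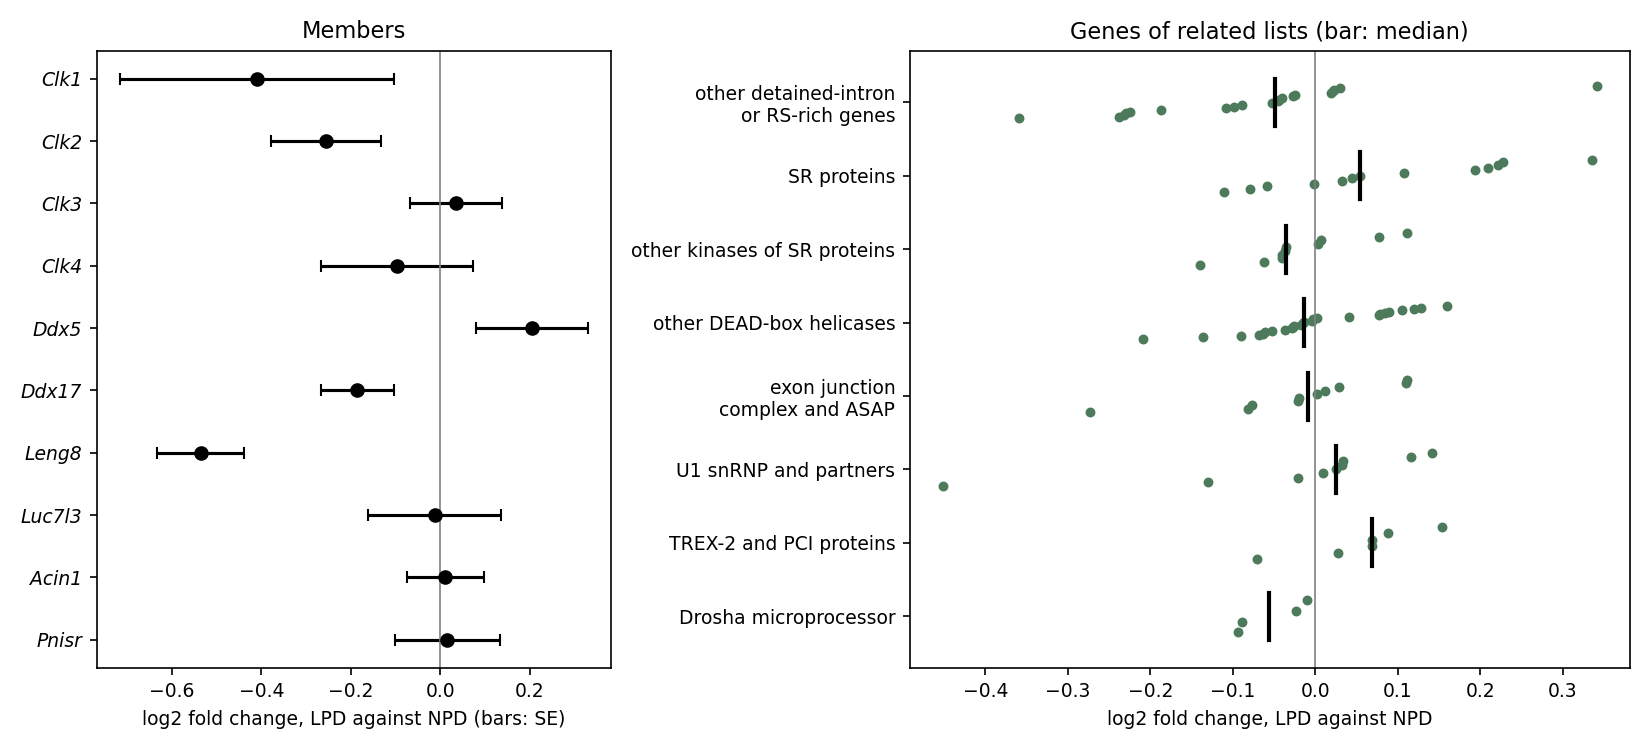
Log2 fold change of LPD against NPD lines (x axes) for each member with its SE (left) and for each tested gene of 8 related lists (right, 1 point a gene, black bar at the median). Leng8 at -0.54 lies farthest from 0 among the members, and list medians lie between -0.06 and 0.07.

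The members did not vary together as 1 group. Over the 10 lines, with the diet mean removed from each value, the 45 pairs of members had a median Pearson r of -0.01, with 22 above 0 and 23 below. These points share library and depth, and r is given as a description. Of the pairs, 3 had an r over 0.7 and 0 an r below -0.7. Ddx5 and Acin1 had an r of 0.91, between 0.82 and 0.95 when any 1 line was left out. Ddx5 and Luc7l3 had 0.81, and Luc7l3 and Acin1 0.68. For these 3 genes LPD line 1 was low and LPD line 20 high.

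Clk1 and Clk4 had an r of 0.75, with 0.59 when LPD line 4 was left out. It was 0.91 when LPD line 1 was left out, where Clk1 was low and Clk4 was not. Reads of nearly identical stretches could be split between these genes, and LPD line 4, lowest for both, was the least deeply sequenced. The part of either in this r was not tested. Ddx17 and Pnisr had an r of 0.64. Ddx5 and Ddx17, though close relatives, had 0.21, between 0.08 and 0.40 with any 1 line left out. Some pairs rested on 1 line: Clk2 and Pnisr went from -0.61 to 0.21 without LPD line 40, and Ddx17 and Leng8 from -0.12 to 0.80 without NPD line 8.

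**Figure D4:**
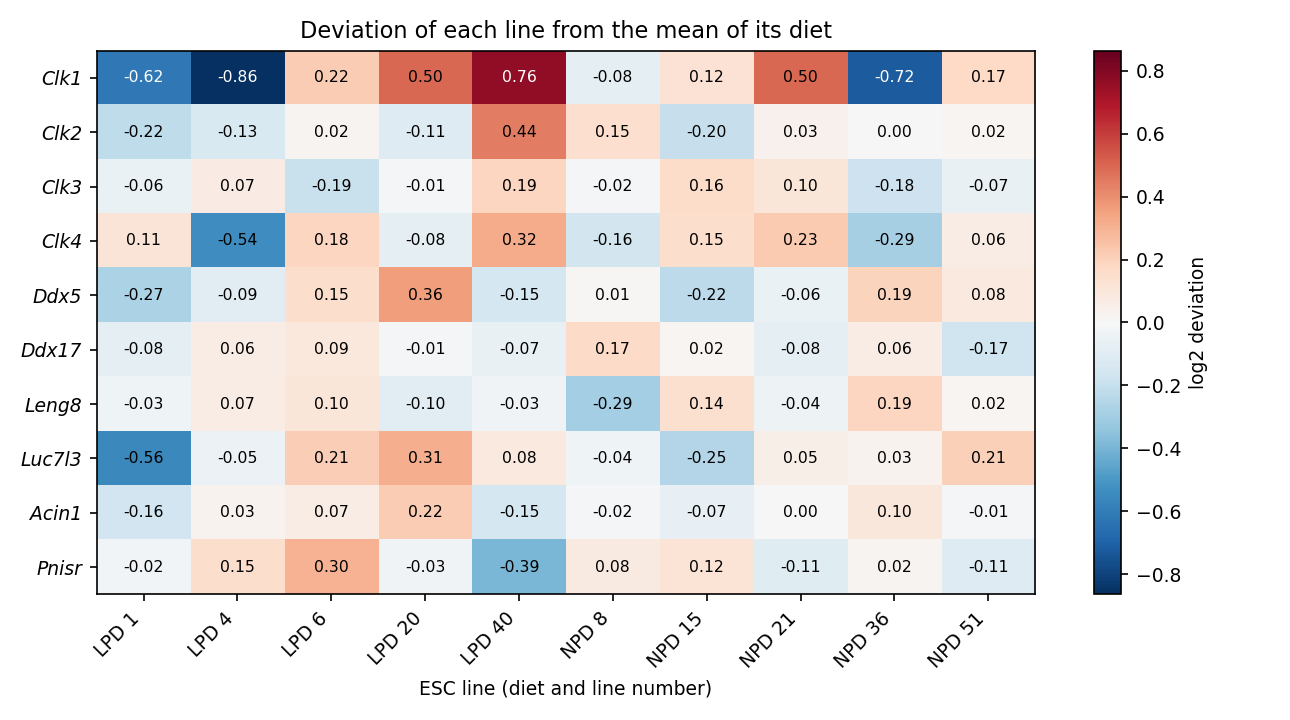
Log2 deviation of each ESC line (columns) from the mean of its diet for each gene (rows), with the value printed in each cell. Clk1 spans -0.86 in LPD line 4 to 0.76 in LPD line 40, and Ddx5, Luc7l3 and Acin1 are all low in LPD line 1 and high in LPD line 20.

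**Figure D5:**
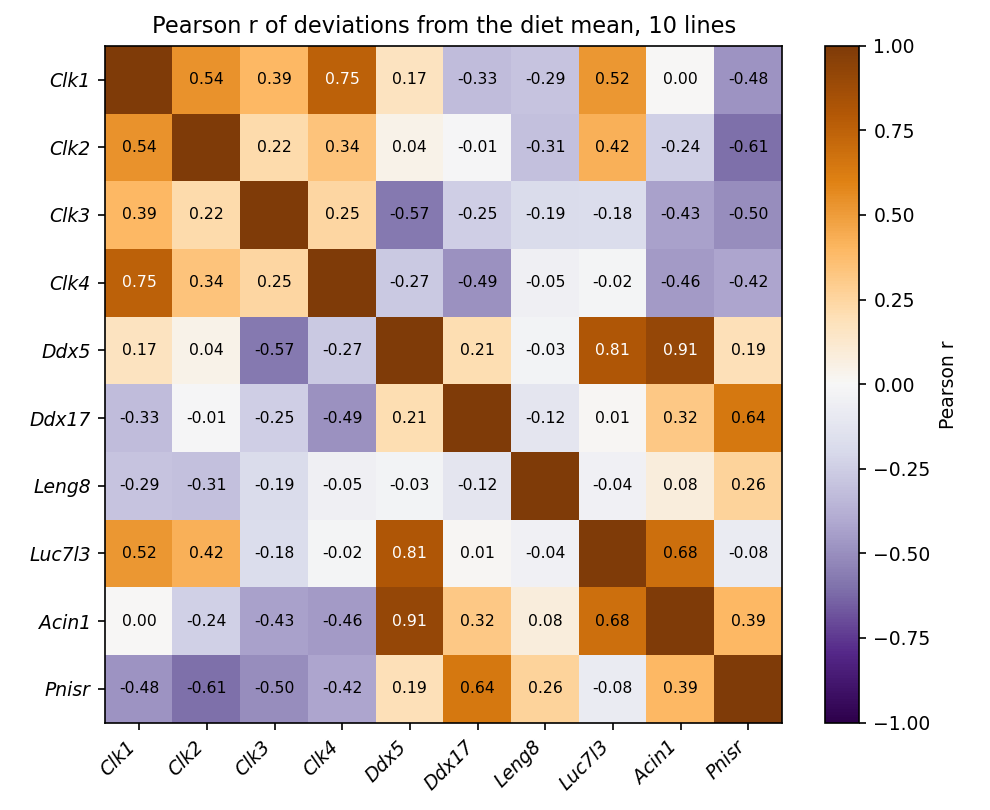
Pearson r between genes (both axes) of their deviations from the diet mean over 10 ESC lines, with the value printed in each cell. Values lie between -0.61 for Clk2 and Pnisr and 0.91 for Ddx5 and Acin1.

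Among the 10445 other genes whose mean reached 100, the 3 most like each member over the 10 lines, with the diet mean removed, had an r above 0.9, which among so many genes is a ranking and nothing more. The names depend on that step: without removing the diet mean, 6 of these 30 genes were again among the 3 nearest, and for 6 members (Clk1, Clk2, Clk4, Ddx17, Leng8 and Acin1) 0 of 3 were. Tm2d2, Sqle and Tpt1 were nearest to Clk1, with Tm2d2 at 0.96. Gdap2 and Glmp, both on chromosome 3 like Clk2, and D6Wsu163e were nearest to Clk2, with Gdap2 at 0.94. For Clk3 they were Cetn2, Rfx7 and Bbs9, and for Clk4 Litaf, Polb and Capzb, with Cetn2 at 0.95 and Litaf at 0.93. Ddx5 was followed by Zfp384 at 0.98, Cxxc1 at 0.97 and Myc at 0.97, and Ddx17 by Ubr2 at 0.95, Suco and Nfe2l1. Rbmx, an RNA-binding protein gene of the X chromosome, was nearest to Leng8 at 0.92, followed by Gstp1, whose values are identical to those of another gene, so that its reads could not be assigned. Ppp1r18, Tut1 and Pop4 were nearest to Luc7l3, CN725425, Ranbp3 and Zfp36l2 to Acin1, and Agps, BC005561 and Mlec to Pnisr.

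Genes with related roles were read from lists drawn up with earlier results of these data known. Of 20 other genes with detained introns or RS-rich products, 15 had lower means in LPD lines, with a median log2 fold change of -0.05. An unadjusted p under 0.05 was found for 4 lower (Ogt, Srrm2, Arglu1 and Luc7l) and 1 higher (Ccnl1), against 5.02% of all genes. Srrm2, a scaffold protein of nuclear speckles, was at 6493 to 7750 in LPD lines and 7858 to 9072 in NPD lines. These did not overlap, as was so for 1.02% of all genes tested, and the log2 fold change was -0.24 (SE 0.08, limma adjusted p = 0.756). Ogt, the enzyme that adds O-GlcNAc to proteins and an example of a gene with a detained intron, was at -0.36 (SE 0.15) and Ccnl1, a cyclin found in speckles, at 0.34 (SE 0.14). Luc7l, a paralog of Luc7l3, was at -0.23 (SE 0.09) and Arglu1 at -0.23 (SE 0.09).

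SR proteins are the substrates of the CLK kinases. Of 13 SR protein genes, 9 had a log2 fold change above 0 for LPD against NPD lines, with a median of 0.05. An unadjusted p under 0.05 was found for 2, against 5.02% of all genes tested. Srsf3 was at 11863 to 13381 in LPD lines and 9895 to 11986 in NPD lines (log2 fold change 0.21, SE 0.08), and Srsf7 at 6460 to 7911 and 5803 to 6515 (0.22, SE 0.08). Neither passed adjustment, with limma adjusted p of 0.911 and 0.839, and both overlapped between the diets. Of 11 other kinase genes of SR proteins, 10 were tested and 0 had an unadjusted p under 0.05, and Srpk1, a cytoplasmic SR protein kinase, was at -0.06 (SE 0.12).

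None of 26 other DEAD-box helicase genes had an unadjusted p under 0.05, with limma log2 fold changes between -0.21 and 0.16 and a median of -0.01. Ddx3x, an RNA helicase of translation, was at 0.09 (SE 0.13). The 10 genes of the exon junction and ASAP complexes, to which acinus belongs, also had 0, with a median of -0.01. Rnps1, its partner in ASAP, was at 0.03 (SE 0.09), and Rbm8a, a core exon junction protein, at -0.02 (SE 0.09).

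In the U1 list, to which LUC7L3 is related, 1 of 9 genes had an unadjusted p under 0.05, against 5.02% of all genes tested. Tia1, which helps U1 to bind weak donors, was at 454, 555, 472, 489 and 566 in LPD lines 1, 4, 6, 20 and 40 and at 737, 747, 634, 753 and 602 in NPD lines 8, 15, 21, 36 and 51. The diets did not overlap, as was so for 1.02% of all genes tested, and the log2 fold change was -0.45 (SE 0.11, limma adjusted p = 0.440). Snrnp70, a core U1 protein, was at -0.13 (SE 0.09). Among 6 TREX-2 and PCI protein genes, which relate to Leng8, 0 had an unadjusted p under 0.05, and the TREX-2 scaffold gene Mcm3ap was at 0.07 (SE 0.15). The 4 genes around Drosha, a complex in which DDX5 and DDX17 take part, had 0 as well, with a median of -0.06. The nuclear-retained RNAs Malat1 and Neat1 were not analysed here.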

How the data were processed

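RNA sequencing of 10 ESC lines was used, 5 LPD and 5 NPD, each line as 1 replicate, and 0 columns lacked a line. Per the labels and the paper, the authors trimmed reads with cutadapt, kept those with at least 90% of bases over a quality of 20, quantified GRCm38 (Ensembl 88) transcripts with Salmon and tested transcripts with Sleuth 0.30.0. The deposited values are a signal per gene and line, estimated counts scaled with DESeq2 by the name of the table. The summing of transcripts to genes is not given in the sources used here. Low values of the 4269 genes with 1 transcript were whole multiples (within 0.15) of what 1 read was worth for 90.6% to 99.7% of them, which gave the depth. The values are normalized estimates and not raw counts, so no count model was used.

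Values were taken as log2(value + 1), and 14354 genes with a mean of at least 10 were fitted in R 4.3.3 by limma 3.58.1 (a moderated linear model with variance trend and no covariate, two-sided), with Benjamini-Hochberg adjustment over all of them. Fold changes on this scale understate those of low genes. Introns, exons and overlaps came from GENCODE M21 on GRCm38 and gene symbols matched 19891 of 20206 genes. Named were the 10 members, the 3 genes with the highest r to each, genes of the lists at an unadjusted p under 0.05 and a few examples of high mean. The members and lists were chosen with earlier results of these data known. Python 3.11.15 with pandas 2.3.3 did the remaining steps, and the fit was tested on simulated data. Alternatives were other pseudocounts, filters, scalings, limma settings, depth as a covariate and each line left out. Subtracting chromosome medians, leaving out LPD line 4 with NPD line 15 and using the longest transcript were chosen after seeing the data.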

Additional observations from a re-analysis of the deposited data

How the results depend on the processing

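The number of genes passing adjustment was 0 and stayed there except with array weights (1 gene) and when single lines were left out, where it ranged from 0 to 40. Leaving out LPD line 40 gave 40, and leaving out LPD line 1, LPD line 20 or NPD line 8 gave 1. The number of members at an unadjusted p under 0.05, 2, was 1 without a variance trend, 1 with depth as a covariate and 1 without both LPD line 4 and NPD line 15 (chosen after seeing the data), and ranged from 1 to 2 with 1 line left out, being 1 without LPD line 20, NPD line 8 or NPD line 36. With rescaling to the same total or quantile normalization it was 3. Leng8 was the member that kept a limma unadjusted p under 0.05 in 21 of 21 alternatives, while Ddx17 did in 11 and Clk2 in 5. For Leng8 the log2 fold changes were between -0.61 and -0.49 and the limma adjusted p between 0.11 and 0.999. Leng8 and Ddx17 were chosen by their diet difference in these same libraries, so these counts describe them and are no evidence of stability. The median difference of the members was -0.12 with array weights and between -0.10 and -0.01 with 1 line left out. Their median pairwise r ranged, with 1 line left out, from -0.154 without LPD line 1 to 0.038 without NPD line 15, and was 0.084 without both LPD line 4 and NPD line 15. All 378 differences of 18 single genes under 21 alternatives stayed within 1 SD of the lines. Leaving out 1 of 5 lines cannot shift a difference by that much. Other filters and some limma settings leave the fold change as it is. For these alternatives the outcome was fixed beforehand and says nothing about stability. The causes of these shifts were not tested. No paired analysis was possible because the lines of the diets share no replicate numbers. Depth limits the precision in LPD line 4 most.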
